A study of Mus musculus with 12 samples.

Results

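The genes described here are 45 genes of DNA replication and mitosis, 21 that act at the entry to S phase or during it and 24 that act in mitosis. They were taken from a list of gene symbols, and a gene was tested when a probe bearing its symbol had a detection p-value under 0.05 on at least 4 of 12 arrays. Of the 45 genes, 42 had a probe, with 70 probes in all, and 37 genes were tested, among 9134 genes tested on the arrays. The tested ones were 20 of 21 S-phase genes and 17 of 24 mitotic genes.

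Messenger RNA was measured on 12 Illumina beadchips in 3D spheroids of the NMuMG line, epithelial cells that come from normal mouse mammary gland. The spheroids had grown for 6 days on a Matrigel layer after 5000 cells were seeded per well, with fresh medium on day 4. In 4 samples the spheroids received 50 ng/mL TGFB1 for 4 h, in 4 samples 250 ng/mL GDF11 for 4 h. The other 4 samples received serum-free medium alone for 4 h. The sample titles name serum-free medium for these alone and do not say whether the ligand groups shared it. Each sample was a biological replicate that pooled the RNA of 2 wells, and all come from 1 cell line. TGFB1 and GDF11 are secreted proteins of the TGF-beta family, known to activate SMAD2 and SMAD3, and were given at unequal doses. Of 8 luminal epithelial markers 6 were tested and Cldn3 was detected on no array. Of 7 basal markers Krt14 and Acta2 were tested, while Krt5, Krt17, Myh11 and Trp63 were detected on no array. No fibroblast, endothelial or leukocyte marker passed the filter, and 1 of 5 adipocyte markers did, Cidec, while Fabp4 and Plin1 were detected on no array. Cell type markers moved too: with TGFB1 4 of 6 luminal markers (3 higher, 1 lower) and 1 of 2 basal markers (Krt14, higher) were called in the model of group means, and with GDF11 Cidec was called (0.70). The levels of the 6 luminal markers were summed on the linear scale, where the brightest weigh most. The log2 of that sum ran from 14.50 to 14.64 with TGFB1, 13.69 to 14.56 with GDF11 and 13.32 to 14.41 in serum-free medium. For the 2 basal markers it ran from 6.17 to 6.59 with TGFB1, 5.80 to 7.37 with GDF11 and 5.34 to 5.88 in serum-free medium, and Cidec ran from 4.50 to 5.17 with TGFB1, 4.81 to 5.53 with GDF11 and 4.25 to 4.51 in serum-free medium. The part of these markers in the results was not tested.

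TGF-beta ligands are known to slow epithelial cells in G1. In that phase RB-family pocket proteins bind E2F factors at the promoters of replication genes such as Cdc6, Ccne2 and the Mcm genes, and cyclin-dependent kinases release them before S phase. Genes of mitosis are switched on later in the cycle, through the CHR element, a short promoter sequence that the MuvB complex binds, together with pocket proteins as DREAM or with B-Myb and FOXM1. The 2 lists therefore stand for 2 phases of the cycle and are described apart.

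The promoter windows of the genes show this difference in sequence. RefSeq windows (GRCm38.p6) of 250 bases before and 50 bases after a transcript start were found for 39 of the 45 genes, some with several starts. The E2F letters TTTCGCGC, TTTCCCGC, TTTGGCGC and TTTGCCGC, read on both strands, occurred in 8 of 22 windows of S-phase genes (36.4%) and in 0 of 22 windows of mitotic genes, against 2.26% of all 32851 windows and 3.92% of windows of the genes tested. The CHR letters TTTGAA, on both strands, occurred in 2 of 22 S-phase windows (9.09%) and 16 of 22 mitotic windows (72.7%), against 17.9% of all windows. CCAAT, also on both strands, stood in 13 S-phase windows (59.1%) and 18 mitotic windows (81.8%), against 37.4% of all windows. The S-phase genes with the E2F letters were Cdc6, Cdt1, Mcm3, Mcm5, Mcm6, Mcm7, Pola1 and Uhrf1. For Mcm7 and Uhrf1, which have several starts, not every window held them. No window was found for Ccne2, Mcm4, Ccna2, Tpx2, Aurkb and Kif20a, so their promoters were not read. A match is a description of these letters and does not show that a factor binds there.

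The following stretches come from 3 S-phase genes whose levels differed from serum-free medium, Cdc6 and Uhrf1 downward and Mcm6 upward, and from 2 mitotic genes, Kif11 and Cdc20, each on its gene's own strand with the matched letters in capitals. The Mcm6 stretch holds 3 E2F matches, of which 2 overlap. For Cdc6 and Uhrf1, whose genes have another start further upstream, 30 bases around the match are shown.
Cdc6, E2F letters, chr11:98908002-98908031, + strand: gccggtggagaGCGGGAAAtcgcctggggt
Uhrf1, E2F letters, chr17:56304117-56304146, + strand: cccgagtcgggTTTCGCGCgcccaggcgtc
Mcm6, E2F letters, 200 bases before the start, chr1:128359706-128359905, - strand: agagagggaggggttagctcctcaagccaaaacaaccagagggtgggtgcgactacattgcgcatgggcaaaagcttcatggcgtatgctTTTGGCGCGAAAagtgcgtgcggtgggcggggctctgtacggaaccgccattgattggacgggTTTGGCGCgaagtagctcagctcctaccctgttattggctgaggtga
Kif11, CHR letters, 200 bases before the start, chr19:37376182-37376381, + strand: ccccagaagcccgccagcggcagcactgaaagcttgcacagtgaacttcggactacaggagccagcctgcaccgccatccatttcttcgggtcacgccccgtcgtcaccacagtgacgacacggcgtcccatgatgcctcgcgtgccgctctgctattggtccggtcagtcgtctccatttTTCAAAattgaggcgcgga
Cdc20, CHR letters, 200 bases before the start, chr4:118437344-118437543, - strand: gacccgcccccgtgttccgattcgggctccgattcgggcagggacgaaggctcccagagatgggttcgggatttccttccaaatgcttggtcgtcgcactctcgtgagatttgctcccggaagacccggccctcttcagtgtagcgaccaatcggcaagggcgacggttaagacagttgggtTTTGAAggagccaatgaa

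Mean raw intensity split the arrays into 8 bright ones at 255 to 310 scanner units and 4 dim ones at 149 to 165. All 4 TGFB1 arrays, GDF11 replicates 2 to 4 and serum-free replicate 3 were bright, while GDF11 replicate 1 and serum-free replicates 1, 2 and 4 were dim. Mean intensity was higher in TGFB1 samples than in serum-free samples (two-sided exact permutation p = 0.0286, the smallest possible with 4 against 4). Among all genes, 49.2% differed between bright and dim arrays in a limma model that held the groups apart. As all TGFB1 arrays were bright, this contrast came from serum-free replicate 3 and GDF11 replicate 1, each against the other arrays of its group. Because of this split, the calls of the 2 lists are counted both from group means alone and with a brightness term. The term takes the same bright-dim shift in every group, and differences with it rest on that same contrast. With the term 1 luminal marker was called lower for each ligand, and 1 basal marker and Cidec were called higher for each ligand. Values are log2 of the background-corrected, quantile-normalized intensity, a scale that gives every array the same distribution so that differences are in effect relative to the bulk of all genes. When arrays were scaled by their medians alone, that median stood at 0.69 for TGFB1 and 0.39 for GDF11. On that scale 9 of the 10 genes called lower with TGFB1 lay above 0, as did 1 of 4 with GDF11 (Uhrf1), but all 16 TGFB1 calls and all 6 GDF11 calls stayed on the same side of the median of all genes.

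From group means, the S-phase genes E2f1, Ccne2, Cdc6 and Uhrf1 were lower with both ligands after 4 h, while Mcm6 was higher. Prim1 was higher too, but it was detected on 1 serum-free array and passed the filter through the ligand groups. With TGFB1, 11 of 20 S-phase genes were called at an adjusted p under 0.05 (limma, Benjamini-Hochberg over all genes), 8 lower and 3 higher, where 34.4% of all genes were called, 18.7% lower and 15.7% higher. The median log2 difference of the 20 genes was -0.22, against -0.01 over all genes. With GDF11, 6 of 20 were called, 4 lower and 2 higher, where 9.93% of all genes were called, 5.15% lower and 4.78% higher, and the median difference was -0.30 against -0.02. In bulk RNA, fewer cells in S phase and less of these mRNAs per cell cannot be told apart. The 2 comparisons share their serum-free arrays. All TGFB1 arrays lay below all serum-free arrays for 8 S-phase genes and above them for 3, where 18.3% and 15.2% of all genes did so. For GDF11 this held for 6 genes and 1 gene, where 5.35% and 5.30% of all genes did so.

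The same lists gave other calls once brightness was in the model. With the term, 7 S-phase genes were called for TGFB1 (6 lower, 1 higher), where 15.9% of all genes were called, 7.93% in each direction. For GDF11 6 were called, all lower, where 10.4% of all genes were called, 4.82% lower and 5.62% higher. The median difference of the 20 genes with the term was -0.17 for TGFB1 and -0.23 for GDF11. Over all genes it was -0.02 and -0.03. The calls shared by both models were 6 for TGFB1 (Cdc6, Ccne2, E2f1, Tk1 and Uhrf1 lower, Mcm6 higher) and 3 for GDF11 (Cdc6, E2f1 and Uhrf1, all lower). On bright arrays alone 7 S-phase genes were called for TGFB1 and 3 for GDF11, where 17.1% and 6.16% of all genes were called. Serum-free medium has 1 array there, which is assumed to vary like the arrays of the ligand groups.

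**Figure D1:**
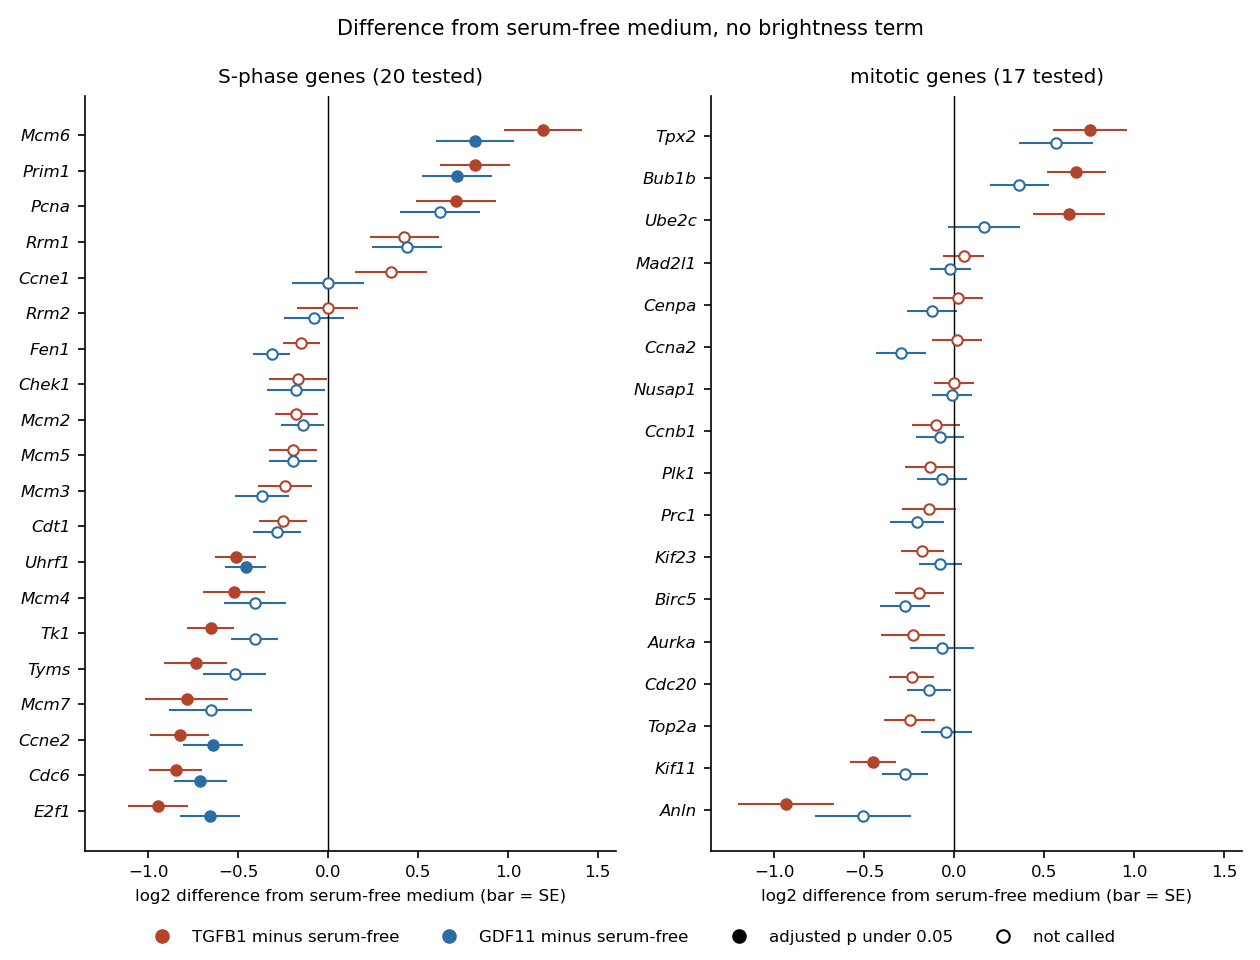
Log2 difference from serum-free medium of each tested gene (horizontal axis, quantile-normalized, bars SE) for 20 S-phase genes (left) and 17 mitotic genes (right), TGFB1 in red and GDF11 in blue, group means alone without a brightness term. Filled points passed an adjusted p of 0.05. With TGFB1, 8 S-phase genes lie filled to the left and 3 to the right, and under median scaling 9 of the 10 genes called lower across both panels move above 0.

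The regulators of the G1/S step come first. E2f1 encodes the activating transcription factor of this step and is itself an E2F target. Its level was 7.04, 7.19, 7.08 and 7.09 with TGFB1, 7.85, 7.14, 7.34 and 7.22 with GDF11, and 8.23, 8.20, 7.66 and 8.09 in serum-free medium. Every TGFB1 array was below every serum-free array, and GDF11 replicate 1, a dim array, was above serum-free replicate 3, a bright one. The difference was -0.95 ± 0.17 for TGFB1 (SE, adjusted p = 0.00108) and -0.66 ± 0.17 for GDF11 (adjusted p = 0.0245). E2f1 was also lower on bright than on dim arrays (-0.56), and with the brightness term the difference was -0.52 for TGFB1 (adjusted p = 0.00448) and -0.38 for GDF11 (adjusted p = 0.022). That GDF11 call was lost without serum-free replicate 3 (-0.32, adjusted p = 0.161) or GDF11 replicate 1 (-0.43, adjusted p = 0.137).

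Ccne2 encodes cyclin E2, a partner of CDK2 at S-phase entry. It stood at 5.43, 5.18, 5.0 and 5.32 with TGFB1, 5.84, 5.57, 5.23 and 5.03 with GDF11, and 6.11, 6.15, 5.94 and 6.03 in serum-free medium. All 8 ligand arrays were below all serum-free arrays. The difference was -0.83 ± 0.17 with TGFB1 (adjusted p = 0.00273) and -0.64 ± 0.17 with GDF11 (adjusted p = 0.0275). In the model with the term the TGFB1 difference of -0.55 was called (adjusted p = 0.0463) and the GDF11 difference of -0.46 was not (adjusted p = 0.0748). Its paralogue Ccne1 was not called, at 0.35 for TGFB1 and 0.00 for GDF11. With the term it was not called either, at -0.15 (adjusted p = 0.576) and -0.33 (adjusted p = 0.128). It was detected on all 4 TGFB1 arrays, 3 GDF11 arrays and 1 serum-free array and was 0.67 higher on bright arrays (adjusted p = 0.000859).

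Origin licensing loads the MCM helicase onto DNA in G1, through the loading factors CDC6 and CDT1. Cdc6 had levels of 6.14, 5.92, 5.99 and 5.88 with TGFB1, 6.24, 6.11, 6.06 and 6.07 with GDF11, and 6.53, 7.20, 6.61 and 6.97 in serum-free medium. All 8 ligand arrays lay below all 4 serum-free arrays, dim or bright. The difference was -0.85 ± 0.15 with TGFB1 (adjusted p = 0.00094), a level 1.80-fold lower, and -0.71 ± 0.15 with GDF11 (adjusted p = 0.00817), 1.64-fold lower. Of the S-phase genes Cdc6 was the GDF11 call from group means that held whichever single array was left out. The term left differences of -0.68 (adjusted p = 0.0117) and -0.60 (adjusted p = 0.0168), and on bright arrays alone -0.63 and -0.53. With the term the GDF11 call was lost without serum-free replicate 3 (-0.67, adjusted p = 0.0645) or GDF11 replicate 1 (-0.53, adjusted p = 0.257).

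Cdt1 was at 7.50, 7.73, 7.39 and 7.36 with TGFB1, at 7.36, 7.53, 7.45 and 7.50 with GDF11, and at 7.54, 7.67, 8.05 and 7.71 in serum-free medium. The TGFB1 and serum-free arrays overlapped, while the GDF11 arrays lay below the serum-free ones. From group means it was not called for TGFB1 (-0.25, adjusted p = 0.153) or GDF11 (-0.28, adjusted p = 0.172). The brightness term made both differences calls, at -0.46 (adjusted p = 0.0309) and -0.42 (adjusted p = 0.0326).

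The 6 MCM subunits of the replicative helicase did not move together. Mcm6 was the S-phase gene with the largest rise. Its level was 10.08, 9.87, 9.88 and 10.10 with TGFB1, 9.33, 9.52, 9.69 and 9.89 with GDF11, and 8.42, 8.26, 9.29 and 9.18 in serum-free medium. Both ligand groups lay above all serum-free arrays, the closest pair being dim GDF11 replicate 1 and bright serum-free replicate 3. The difference was 1.20 ± 0.22 with TGFB1 (adjusted p = 0.00129), 2.29-fold, and 0.82 ± 0.22 with GDF11 (adjusted p = 0.0301), 1.76-fold. Mcm6 was 0.52 higher on bright arrays (adjusted p = 0.0413). Modelling brightness gave a TGFB1 difference of 0.80 (adjusted p = 0.0266) and a GDF11 difference of 0.56 (adjusted p = 0.0977), the second no longer called. All 4 probes of Mcm6 were higher with TGFB1 (0.71 to 1.21) and with GDF11 (0.55 to 0.88).

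Mcm7 and Mcm4 were lower with TGFB1 in the model of group means. Mcm7 was at 5.93, 5.66, 5.83 and 6.05 with TGFB1, at 6.68, 5.63, 5.86 and 5.83 with GDF11, and at 7.10, 6.70, 6.12 and 6.70 in serum-free medium. Mcm4 was at 10.03, 10.14, 10.14 and 10.19 with TGFB1, at 10.71, 10, 10.13 and 10.14 with GDF11, and at 10.62, 10.97, 10.26 and 10.74 in serum-free medium. For both genes the dim GDF11 array sat close to the dim serum-free arrays and serum-free replicate 3 sat nearest to the bright ligand arrays. The TGFB1 differences were -0.79 ± 0.23 for Mcm7 (adjusted p = 0.0207) and -0.52 ± 0.17 for Mcm4 (adjusted p = 0.033). The bright-dim differences were of the same size, -0.81 and -0.57, and with the term the TGFB1 differences were -0.18 (adjusted p = 0.522) and -0.10 (adjusted p = 0.676). The GDF11 differences from group means, -0.65 for Mcm7 (adjusted p = 0.0893) and -0.40 for Mcm4 (adjusted p = 0.141), were not called. The 2 other Mcm4 probes, each detected on 7 arrays, read 4.18 to 4.82, near the lowest detected level of an array (4.43 to 4.76). Both gave 0.19 with TGFB1, and they gave 0.29 and 0.20 with GDF11, none of them called over all probes. At that level they do not settle a sign for Mcm4. Mcm2, Mcm3 and Mcm5 were not called, with differences of -0.37 to -0.14 for either ligand.

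**Figure D2:**
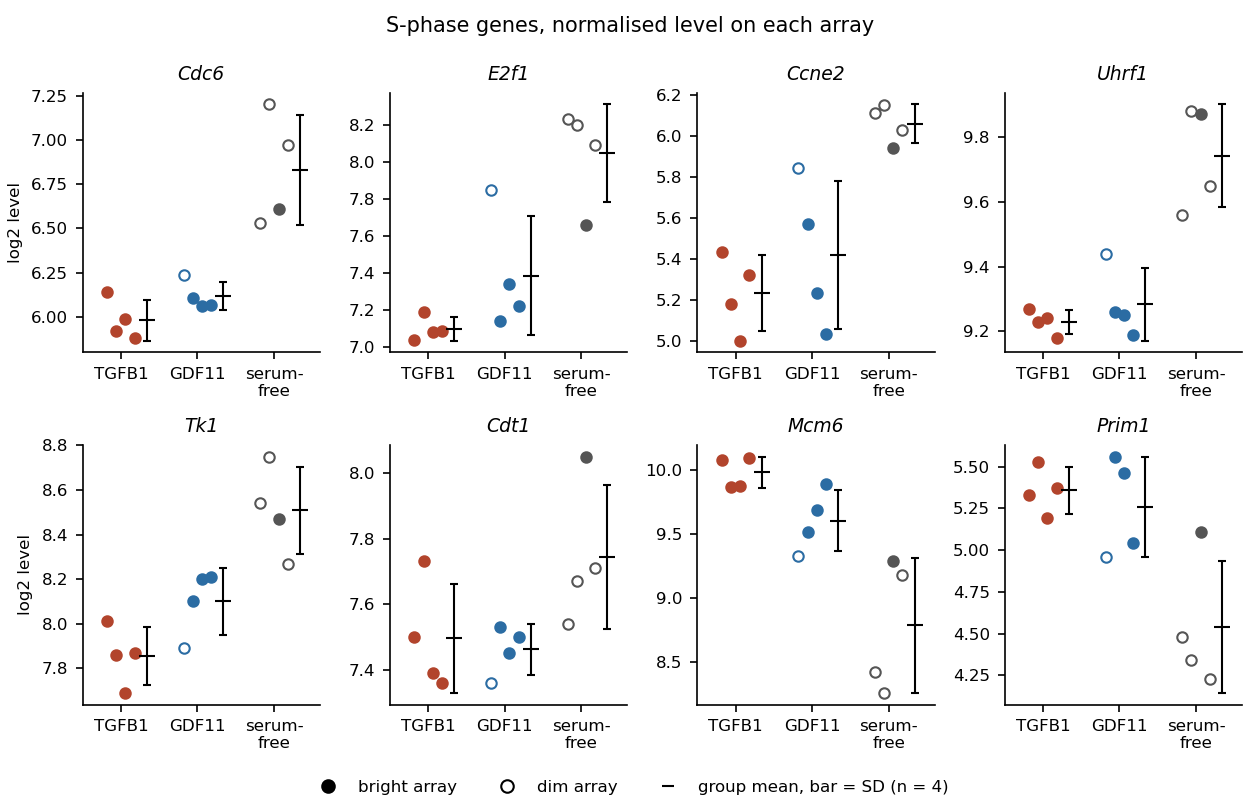
Log2 level on each array (vertical axis, normalised within the set of 12 arrays) of 8 S-phase genes in TGFB1, GDF11 and serum-free samples. Filled circles are bright arrays, open circles dim arrays, and the bar gives the group mean with its SD (n = 4). Cdc6, Ccne2 and Uhrf1 are lower on all 8 ligand arrays than on all 4 serum-free arrays, and Mcm6 is higher on all 8.

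Of 4 genes for enzymes that make DNA precursors, 2 were called with TGFB1 from group means and 1 with the term, where 34.4% and 15.9% of all genes were called. With GDF11 0 were called from group means and 1 with the term, where 9.93% and 10.4% of all genes were called. Tk1 encodes thymidine kinase 1, which salvages thymidine in S phase. It was at 8.01, 7.86, 7.69 and 7.87 with TGFB1, at 7.89, 8.10, 8.20 and 8.21 with GDF11, and at 8.54, 8.75, 8.47 and 8.27 in serum-free medium. No ligand array reached the lowest serum-free array. The TGFB1 difference was -0.65 ± 0.13 (adjusted p = 0.00265) and -0.74 with the term (adjusted p = 0.00393), and the GDF11 difference was -0.41 ± 0.13 (adjusted p = 0.0653) and -0.47 with the term (adjusted p = 0.039). Tk1 on these arrays did not differ detectably by brightness (0.12, adjusted p = 0.485). A second Tk1 probe, detected on 9 arrays, was 0.90 higher on bright arrays. Its TGFB1 difference was 0.28 (adjusted p = 0.499 over all probes, not called) and -0.39 with the term. On serum-free replicate 4 it read 4.21, below the lowest detected level of that array, 4.69.

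Tyms encodes thymidylate synthase, the route that makes thymidylate anew. Its level was 8.70, 8.68, 8.59 and 8.47 with TGFB1, 9.11, 8.95, 8.54 and 8.71 with GDF11, and 9.50, 9.58, 8.83 and 9.48 in serum-free medium. All TGFB1 arrays were below all serum-free arrays, and bright serum-free replicate 3 was the lowest of its group. The TGFB1 difference was -0.74 ± 0.17 (adjusted p = 0.00697), and -0.33 with the term (adjusted p = 0.131). From group means the GDF11 difference of -0.52 was not called (adjusted p = 0.0745). The 4 Tyms probes gave TGFB1 differences between -0.74 and 0.92, and their mean was 0.05, so that the direction for Tyms depends on the probe. Rrm1 and Rrm2, the subunits of ribonucleotide reductase, were not called for either ligand, with Rrm1 at 0.42 and Rrm2 at 0.00 for TGFB1. A second Rrm2 probe, detected on all 12 arrays, was higher with TGFB1 (0.68, adjusted p = 0.0217 over all probes), at 0.25 with the term and 0.56 between bright and dim arrays. Rrm1 was 0.54 higher on bright arrays (adjusted p = 0.011).

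Of the genes of DNA synthesis itself, Prim1 and Pcna were higher with TGFB1 from group means. Fen1 was lower with GDF11 in the model with the brightness term. Prim1, the catalytic subunit of primase, was at 5.33, 5.53, 5.19 and 5.37 with TGFB1, at 4.96, 5.56, 5.46 and 5.04 with GDF11, and at 4.48, 4.34, 5.11 and 4.23 in serum-free medium. Serum-free replicate 3, the bright one, lay above 2 GDF11 arrays, and Prim1 was detected on that array alone in its group. Prim1 was detected on all 4 arrays of each ligand group and so passed the filter through the groups where it was higher. The dim serum-free levels lay below the lowest detected level of their arrays, 4.67 to 4.69. The differences were 0.82 ± 0.19 with TGFB1 (adjusted p = 0.00715) and 0.72 ± 0.19 with GDF11 (adjusted p = 0.0339), and with the term they were 0.39 (adjusted p = 0.154) and 0.43 (adjusted p = 0.0872).

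Pcna, the sliding clamp of the replicative polymerases, was at 7.84, 7.88, 7.44 and 7.46 with TGFB1, at 7.06, 7.70, 7.37 and 8.12 with GDF11, and at 6.70, 6.79, 7.42 and 6.85 in serum-free medium. All TGFB1 arrays were above all serum-free arrays, of which the bright one, at 7.42, came nearest to them. The TGFB1 difference was 0.71 ± 0.22 (adjusted p = 0.0268), and 0.22 with the term (adjusted p = 0.54), beside a bright-dim difference of 0.66 (adjusted p = 0.00714). From group means the GDF11 difference of 0.62 was not called (adjusted p = 0.0928). Fen1, the nuclease that trims Okazaki fragments, was at 9.44, 9.29, 9.38 and 9.43 with TGFB1, at 9.22, 9.17, 9.31 and 9.18 with GDF11, and at 9.60, 9.52, 9.61 and 9.40 in serum-free medium. All GDF11 arrays were below all serum-free arrays, and the GDF11 difference of -0.31 ± 0.10 (adjusted p = 0.0698) became a call with the term (-0.34, adjusted p = 0.0376). The fourth gene of this group, Pola1, was detected on 2 arrays and was not tested.

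Uhrf1 encodes the adaptor that brings DNA methyltransferase 1 to newly replicated DNA. Its level was 9.27, 9.23, 9.24 and 9.18 with TGFB1, 9.44, 9.26, 9.25 and 9.19 with GDF11, and 9.56, 9.88, 9.87 and 9.65 in serum-free medium. All 8 ligand arrays were below all serum-free arrays. The difference was -0.51 ± 0.11 with TGFB1 (adjusted p = 0.00466) and -0.46 ± 0.11 with GDF11 (adjusted p = 0.0217). The values hardly moved with the brightness term, at -0.50 (adjusted p = 0.0169) and -0.45 (adjusted p = 0.0211), beside a bright-dim difference of -0.02. With the term and without serum-free replicate 3 they were -0.26 (adjusted p = 0.384) and -0.25 (adjusted p = 0.303). With the term and without GDF11 replicate 1 the GDF11 difference stayed called, at -0.64 (adjusted p = 0.0273). Chek1, the replication checkpoint kinase, was detected on 4 arrays and was not called, at -0.17 for TGFB1 and -0.18 for GDF11.

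Fewer of the mitotic genes were called. With GDF11, 0 of 17 were called (limma), where 9.93% of all genes were, and 2 had an unadjusted p under 0.05, where 29.5% of all genes had one. Their median difference was -0.08, and 2 were called without serum-free replicate 3 or without GDF11 replicate 1. With TGFB1, 5 of 17 were called, 3 higher and 2 lower, where 34.4% of all genes were called. With the brightness term no mitotic gene was called for either ligand, where 15.9% of all genes were called for TGFB1 and 10.4% for GDF11. The median difference of the 17 from group means was -0.14 for TGFB1. With the term it was 0.03 for TGFB1 and 0.01 for GDF11. All TGFB1 arrays lay above all serum-free arrays for 2 mitotic genes and below them for 3, and all GDF11 arrays above them for 1 and below for 0. The shares of all genes were 15.2% and 18.3% for TGFB1 and 5.30% and 5.35% for GDF11, so the TGFB1 counts are near those of all genes. A difference between the S-phase and the mitotic genes was not tested.

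Among genes of the spindle checkpoint and of anaphase, Bub1b and Ube2c were higher with TGFB1. Bub1b encodes BUBR1, a checkpoint protein that restrains the anaphase-promoting complex. It was at 6.60, 6.43, 6.57 and 6.89 with TGFB1, at 6.32, 6.14, 6.54 and 6.24 with GDF11, and at 5.63, 6.15, 6.27 and 5.72 in serum-free medium. Each TGFB1 array was above each serum-free array, and the GDF11 arrays overlapped with both. The difference was 0.68 ± 0.16 with TGFB1 (adjusted p = 0.00804), and 0.52 with the term (adjusted p = 0.0931). From group means the GDF11 difference of 0.36 was not called (adjusted p = 0.163).

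Ube2c encodes the ubiquitin-conjugating enzyme of the anaphase-promoting complex. Its level was 5.21, 5.22, 5.39 and 4.99 with TGFB1, 4.44, 4.82, 4.54 and 5.12 with GDF11, and 4.52, 4.30, 5.15 and 4.28 in serum-free medium. The bright serum-free array, the one on which the probe was detected in that group, lay inside the TGFB1 range. The probe was detected on 4 TGFB1 and 3 GDF11 arrays, so it passed the filter through the ligand groups. The TGFB1 difference was 0.64 ± 0.20 (adjusted p = 0.027), and 0.20 with the term (adjusted p = 0.526), beside a bright-dim difference of 0.59 (adjusted p = 0.00697). From group means the GDF11 difference of 0.17 was not called (adjusted p = 0.583). Mad2l1 and Cdc20, which act in the same checkpoint, were not called, at 0.05 and -0.24 for TGFB1.

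Tpx2 and Kif11 belong to the spindle. Tpx2, which activates Aurora A on spindle microtubules, was at 6.47, 6.52, 6.46 and 6.38 with TGFB1, at 6.22, 6.19, 6.27 and 6.38 with GDF11, and at 5.85, 6.03, 6.02 and 4.90 in serum-free medium. Both ligand groups lay above all serum-free arrays, of which replicate 4 stood far below the others. The difference was 0.76 ± 0.21 with TGFB1 (adjusted p = 0.0141) and 0.56 ± 0.21 with GDF11 (adjusted p = 0.0972). Without serum-free replicate 4 the TGFB1 difference was 0.49 (adjusted p = 0.00943). With the term it was 0.57 (adjusted p = 0.158). Kif11 encodes the kinesin that pushes spindle poles apart and was at 5.68, 5.89, 5.99 and 5.81 with TGFB1, at 6.07, 6.16, 5.77 and 6.08 with GDF11, and at 6.35, 6.39, 6.06 and 6.39 in serum-free medium. All TGFB1 arrays were below all serum-free arrays, and the bright serum-free array lay inside the GDF11 range. The TGFB1 difference was -0.45 ± 0.13 (adjusted p = 0.0173), and -0.31 with the term (adjusted p = 0.169). From group means the GDF11 difference of -0.28 was not called (adjusted p = 0.17).

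Anln encodes anillin, a scaffold of the cleavage furrow that also binds cortical actin. Its level was 8.19, 8.37, 8.24 and 8.17 with TGFB1, 9.60, 8.43, 8.36 and 8.28 with GDF11, and 9.53, 9.43, 8.63 and 9.13 in serum-free medium. The arrays followed brightness across the groups, since the 4 dim arrays were the 4 highest. The TGFB1 difference of -0.94 ± 0.27 (adjusted p = 0.0177) was -0.19 with the term (adjusted p = 0.466), beside a bright-dim difference of -0.99 ± 0.13 (adjusted p = 7.76e-05). From group means the GDF11 difference of -0.51 was not called (adjusted p = 0.218). A second Anln probe gave -0.47 for TGFB1 and -0.94 for bright against dim arrays.

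**Figure D3:**
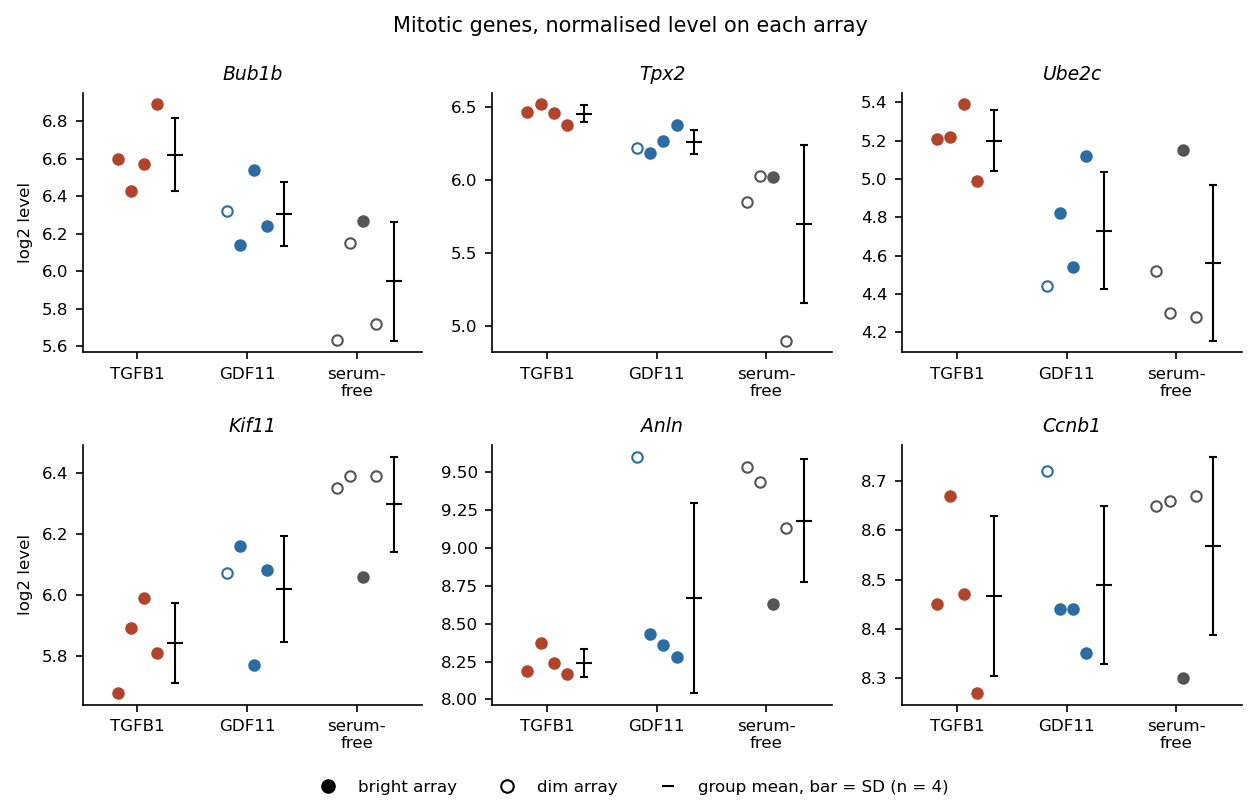
Log2 level on each array (vertical axis, normalised within the set of 12 arrays) of 6 mitotic genes in TGFB1, GDF11 and serum-free samples, with bright arrays filled, dim arrays open, and group means with SD (n = 4). The 4 dim arrays are the 4 highest for Anln, and the bright serum-free array lies with the TGFB1 arrays for Ube2c. For Ccnb1 the dim and bright serum-free arrays alike overlap with the TGFB1 arrays.

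The other 12 tested mitotic genes were called for neither ligand. With TGFB1 their differences lay between -0.25 (Top2a) and 0.05 (Mad2l1), with SE from 0.11 to 0.27 over the mitotic genes. They include the cyclins Ccna2 and Ccnb1, the kinases Aurka and Plk1, the chromosome proteins Cenpa, Birc5 and Top2a, and the spindle proteins Kif23, Nusap1 and Prc1. Ccnb2, Bub1, Cenpe and Ect2 had a probe that was detected on 0 arrays, and no probe bore the symbols Mki67, Aurkb and Kif20a in the table used here.

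TGFB1 and GDF11 were also set against each other, at doses that differ. No S-phase or mitotic gene was called (limma, 0 of 20 and 0 of 17), where 0.832% of all genes were called. At an unadjusted p under 0.05 there were 0 S-phase genes and 2 mitotic genes, where 8.85% of all genes passed. The differences, TGFB1 minus GDF11, ran from -0.29 (E2f1) to 0.38 (Mcm6) among S-phase genes and from -0.43 (Anln) to 0.47 (Ube2c) among mitotic genes, with SE of 0.10 to 0.27. No gene of the 2 lists was called with the brightness term either, while 2.51% of all genes were. These values do not show that the ligands act alike on the 2 lists.

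Many of these genes differed between bright and dim arrays, though no larger a share than of all genes. Between bright and dim arrays, with the groups in the model, 9 of 20 S-phase genes and 5 of 17 mitotic genes were called, where 49.2% of all genes were, 22.7% higher and 26.5% lower. Higher on bright arrays were Ccne1, Pcna, Prim1, Rrm1, Mcm6 and Ube2c, by 0.52 to 0.67. Lower on bright arrays were Anln, Mcm7, Mcm4, E2f1, Tyms, Aurka, Prc1 and Ccnb1, with differences from -0.99 (Anln) to -0.34 (Ccnb1). Cdc6, Uhrf1, Tk1 and Ccne2 were not among the genes called for brightness, with bright-dim differences of -0.22, -0.02, 0.12 and -0.36.

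**Figure D4:**
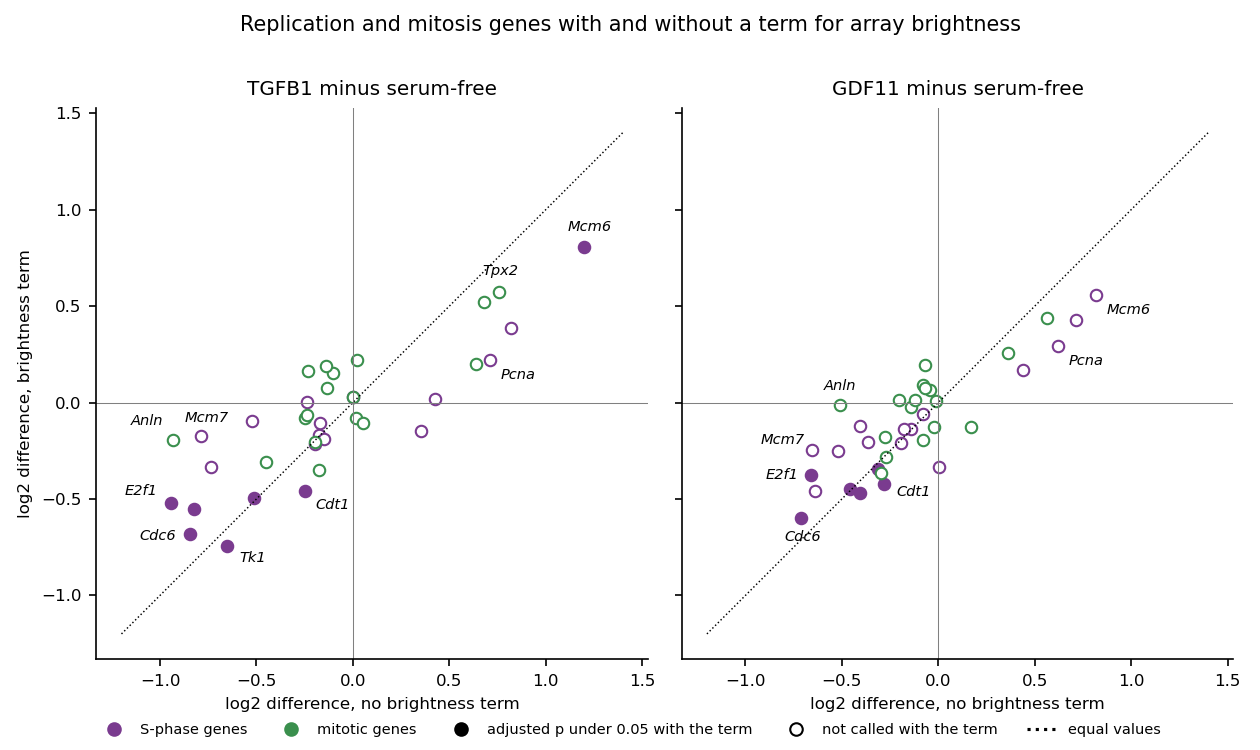
Log2 difference from serum-free medium of the 37 tested genes without a brightness term (horizontal axis) and with it (vertical axis), TGFB1 left and GDF11 right, quantile-normalized. Filled points passed an adjusted p of 0.05 with the term, and the dotted line marks equal values. Cdc6 stays near the line, Anln and Mcm7 move toward 0, and no mitotic gene is filled.

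Probes of 1 gene often disagreed on brightness. Of the 2 Ccnb1 probes 1 was 0.93 higher on bright arrays while the other had a bright-dim difference of -0.34, and they differed by 0.77 and -0.10 between TGFB1 and serum-free medium. The Tyms probes ran from -0.54 to 1.49 between bright and dim arrays. For Cdc20 the range was -0.23 to 0.78, and for Rrm2 it was -0.04 to 0.56. Cdc6, Uhrf1, E2f1 and Ccne2 each had 1 probe that passed the filter, so no second probe bears on their values.

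**Figure D5:**
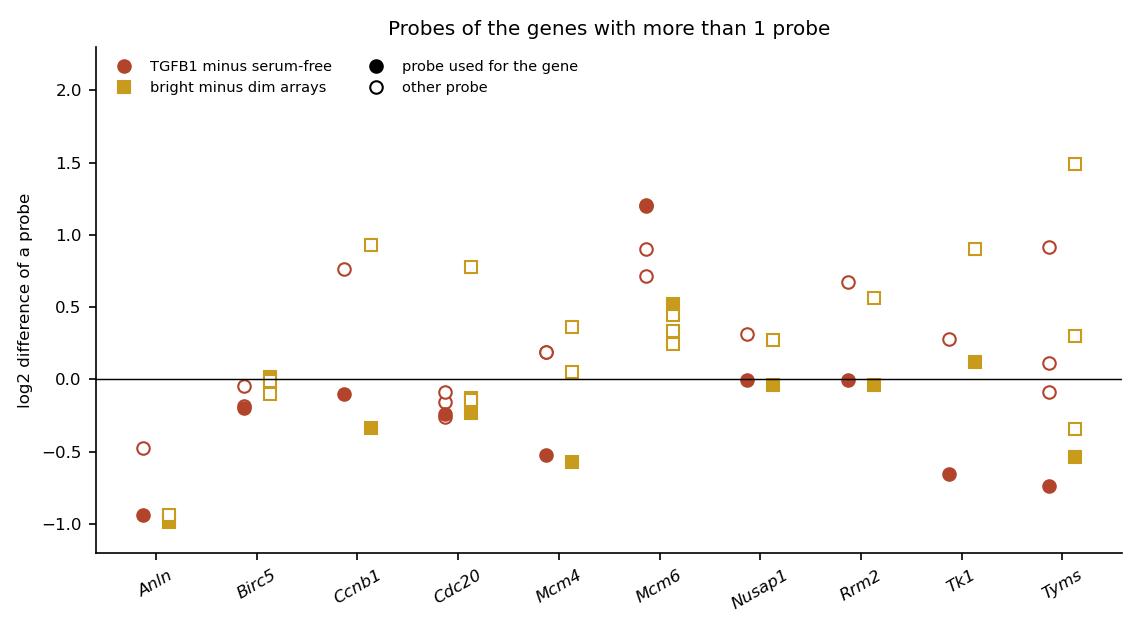
Log2 difference of each probe that passed the filter (vertical axis), for the 10 genes with more than 1 such probe, for TGFB1 minus serum-free medium (circles) and bright minus dim arrays (squares). Filled symbols are the probe used for the gene. The Mcm6 probes lie together above 0, while those of Ccnb1, Mcm4, Tyms and Tk1 lie on both sides of 0 or far apart.

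Among further genes of replication more were called lower than higher. Of 78 further S-phase genes 62 were tested, and TGFB1 called 24, with 21 lower and 3 higher, while GDF11 called 5, all lower. These are 38.7% and 8.06% of those tested, near the 34.4% and 9.93% of all genes. By direction, 18.7% of all genes were called lower and 15.7% higher with TGFB1, and 5.15% lower and 4.78% higher with GDF11. With the brightness term 7 were called for each ligand, all lower, which is 11.3%, against 15.9% of all genes for TGFB1 and 10.4% for GDF11. Of all genes 7.93% were called lower with the term for TGFB1 and 4.82% for GDF11. The genes with the smallest p were Orc6, a subunit of the origin recognition complex (-0.68 with TGFB1, adjusted p = 0.00101), Mcm10, a replication initiation factor (-0.72 with TGFB1 and -0.67 with GDF11, adjusted p = 0.0013 and 0.00587), and Ung, a uracil DNA glycosylase (-1.05 with TGFB1 and -0.85 with GDF11, adjusted p = 0.00147 and 0.0148). With the term these stood at -0.59 for Orc6, -0.69 and -0.65 for Mcm10, and -0.62 and -0.56 for Ung, and all passed. Clspn, a checkpoint adaptor, was lower with GDF11 (-0.62, adjusted p = 0.0154), also with the term (-0.42, adjusted p = 0.0192). Genes higher with TGFB1 included Pole and Gmnn, by 1.02 and 0.57, and neither was called with the term. Their bright-dim differences were 1.16 and 0.44.

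Of 98 further mitotic genes 72 were tested. TGFB1 called 13, with 9 higher and 4 lower, and GDF11 called 1, Ncapd3, a condensin subunit (-0.54, adjusted p = 0.0342). These are 18.1% and 1.39% of those tested, against 34.4% and 9.93% of all genes. Among those higher with TGFB1 was Tacc3, a spindle protein (0.61, adjusted p = 0.00457), which also passed with the term (0.48, adjusted p = 0.045). Incenp (0.55, adjusted p = 0.012) and Kpna2 (1.00, adjusted p = 0.0276) were higher too, and with the term neither was called, at 0.42 and 0.17. Lower were Ncapd3 (-0.58, adjusted p = 0.0102), Sgo1 (-0.47, adjusted p = 0.03) and Cdca2 (-0.66, adjusted p = 0.0363). Those 3 lost the call with the term. In all, 2 genes of this list were called with the term for TGFB1, both higher (2.78%), and 1 for GDF11, also higher (1.39%), against 15.9% and 10.4% of all genes.

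The regulators that sit above both lists gave 5 calls with TGFB1 among 13 tested of 19 genes and 0 with GDF11, where 3 had an unadjusted p under 0.05. The TGFB1 share of 38.5% is near the 34.4% of all genes, and for GDF11 9.93% of all genes were called and 29.5% had an unadjusted p under 0.05. E2f2, another activating E2F, was lower with TGFB1 (-1.17 ± 0.24, SE, adjusted p = 0.0032), also with the term (-0.50, adjusted p = 0.0273). Tfdp1, the partner that E2F proteins need to bind DNA, was lower (-0.52, adjusted p = 0.00946), as was Mybl2, which encodes B-Myb (-0.56, adjusted p = 0.0248). Tfdp2 (0.77, adjusted p = 0.00487) and E2f4 (0.64, adjusted p = 0.0338), the second a factor that mostly represses, were higher. With the term Tfdp1, Mybl2, Tfdp2 and E2f4 were not called. In the comparison of TGFB1 with GDF11 no gene of these 3 further lists was called.

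Single arrays decided many of these calls. For S-phase genes with GDF11 the count of 6 was 12 without serum-free replicate 3 and 13 without GDF11 replicate 1, the arrays that differ in brightness from the rest of their group, and 1 to 3 without any one of the other 6 arrays of the 2 groups. With the brightness term it was 1 without either of those 2 arrays. For TGFB1 the S-phase count of 11 stayed between 8 and 13, and Mcm6, Tyms, Tk1, Cdc6, Ccne2, E2f1, Prim1, Uhrf1, Bub1b and Tpx2 were called in all 12 such fits. The TGFB1 count of 7 with the term was 1 (Tk1) without serum-free replicate 3, the single bright serum-free array. Of the other TGFB1 calls from group means, Kif11 was lost without TGFB1 replicate 1 (-0.40, adjusted p = 0.0573) and Anln without serum-free replicate 1 or 2 (-0.82 and -0.85, adjusted p = 0.0574 and 0.0541). Mcm4, Mcm7, Pcna and Ube2c were each lost without any one of serum-free replicates 1, 2 and 4, and in some fits without a TGFB1 array. Of the GDF11 calls other than Cdc6, each was lost without any one of several arrays, Uhrf1 without serum-free replicate 2 or GDF11 replicate 2, 3 or 4 (adjusted p from 0.062 to 0.0769), and E2f1 without any of the 3 dim serum-free or 3 bright GDF11 arrays (adjusted p from 0.0664 to 0.085).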

How the data were processed

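Per the file headers, the deposited raw table holds bead intensity on a linear scale for every probe on each array, its bead standard error, the number of beads (another measure, not used in tests) and a detection p-value. The authors' processed values, here read as log2, are of unstated transformation, and the submitters' processing notes name lumi with no version. Intensities were background-corrected and quantile-normalized with neqc (limma 3.58.1 in R 4.3.3, offset 16). The detection filter named in the report left 12680 probes, and each gene was read from its brightest probe. Group means over all 12 arrays were fitted with lmFit and eBayes and adjusted by Benjamini-Hochberg over 9134 genes. The fit was tried on simulated data that held no bright-dim split, so that trial does not bear on the split. Symbols were updated through a RefSeq table (GRCm38.p6). The main fit did not pair samples by replicate number (same-number correlations -0.33 to 0.61, brightness not removed). Detection passed for 41.2% to 49.6% of probes per array, and 4 arrays per group limit precision. All tested genes of the 2 lists could be named, values per array were given for those called, and up to 3 called genes per direction were named from each other list, of which 1 is not reported here. The genes, lists and the bright-dim split were chosen with earlier results of these data known. Alternatives were other normalizations, filters, probe rules, a brightness term, a replicate block and leaving out each array. Pandas 2.3.3 and matplotlib 3.10.9 under Python 3.11.15 drew the figures.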

Additional observations from a re-analysis of the deposited data

Results flagged for a closer look

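In 9 of 111 groups of 4 arrays, 1 array stood apart from the other 3, the gap to its nearest neighbour divided by the group's range exceeding Dixon's 95% critical value, which chance alone passes in about 1 of 20 groups. In 4 of the 9 the array was serum-free replicate 3, the bright one, lowest of its group for Ccnb1 (ratio 0.945), Tyms (0.875), Kif11 (0.871) and Plk1 (0.861). In 2 it was GDF11 replicate 1, the dim one, highest of its group for Anln (0.888, level 9.60 against 8.43 at the nearest) and Prc1 (0.885, 10.36 against 9.75). The part of brightness in these gaps was not tested beyond the values with the term above. The remaining 3 were serum-free replicate 4 for Tpx2 (0.841, level 4.90 against 5.85), TGFB1 replicate 4 for Cenpa (0.887) and TGFB1 replicate 1 for Prc1 (0.834), each the lowest of its group.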

How the results depend on the processing

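No S-phase or mitotic gene was called for TGFB1 against GDF11 under any setting run. For mitotic genes with GDF11 the count was 0 except 0 to 2 when 1 array was left out. The TGFB1 counts, 5 mitotic and 11 S-phase, became 11 and 5 (all higher) under median scaling (all-gene median 0.69) and 2 and 7 on bright arrays alone. With the brightness term they were 0 and 7, and 0 and 4 with a replicate block added. The term gave 2 and 4 with median scaling, 2 and 7 with cyclic loess, 1 and 6 with no background correction, and 1 and 7 with an offset of 50 or with the authors' processed values, whose mitotic count without the term was 3. The GDF11 S-phase count of 6 was 0 under median scaling, 3 on bright arrays, 0 on dim arrays, and with the term 3 under median scaling and 0 with the replicate block. Bright-dim counts, 5 mitotic and 9 S-phase, were 14 and 19 under median scaling, and the mitotic one was 9 with no background correction, 10 with the authors' values and 3 with the replicate block. The replicate block alone gave 8 S-phase calls for GDF11 and 11 for TGFB1. The labels do not say that replicate numbers mark a shared batch. The best match in another group had the same number for 4 of 12 arrays. GDF11 and serum-free arrays of the same number correlated at 0.44 and 0.61 where alike in brightness, and at -0.33 and -0.25 where unlike. Brightness was not removed for that check, so it cannot tell whether samples were paired. Leaving out 1 array, with or without the term, gave S-phase counts of 1 to 13 (GDF11) and 1 to 13 (TGFB1), mitotic counts of 0 to 2 and 0 to 5, and bright-dim counts of 5 to 11 and 2 to 6. Among calls from group means, signs turned under median scaling for Uhrf1 with GDF11 (0.10) and, with TGFB1, for Kif11 (0.40), Anln (0.048), Mcm4 (0.41), Mcm7 (0.11), Tyms (0.25), Tk1 (0.34), Cdc6 (0.057), E2f1 (0.015) and Uhrf1 (0.48), all below the median of all genes on that scale. Among differences called with the term only, those from group means turned there for Tk1 (0.15), Cdt1 (0.29) and Fen1 (0.25) with GDF11 and Cdt1 with TGFB1 (0.75, above that median). They also turned for Tyms when detected probes were averaged (0.052), for Mcm4 with the term and median scaling (0.054), and for Anln with TGFB1, whose values with 1 array left out ran from -1.12 without the term to 0.13 with it, both without serum-free replicate 3. For the moves not set by fewer arrays the cause was not tested. Signal over background limits Chek1, Ccne1, Prim1 and Ube2c, detected on 4 to 9 arrays.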
